A study of Mus musculus with 5 samples.

Results

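The Iroquois genes *Irx1* to *Irx6* encode transcription factors of the TALE class of homeodomain proteins, and all 6 were followed here, among the 32285 genes counted. They were chosen by name under a rule that uses no measured value, but with earlier results of these data known. Each was followed by library and by cell type, with cell types read from marker genes that include no *Irx* gene. The single cell RNA sequencing (scRNA-seq) counted unique molecular identifiers (UMIs, one per captured RNA molecule) in 5 libraries of wild type mice. The 3 penis libraries came from male pups at postnatal day 6 (P6), when the penis bone (baculum) begins to form, and the prepuce had been removed so that mainly the glans was sampled. The study took them from 3 males of a pair of litters. The forelimb and the hindlimb gave 1 library each, from male embryos at embryonic day 15 (E15). The labels give the strain as C57BL/6N and the study's methods as C57BL/6J. No sample carried a mutant allele or a treatment. Tissue and age changed together from penis to limb, so they cannot be told apart. The labels give the same cell preparation for all 5 libraries. Which embryos entered which limb library is not stated in the sources used here, so the limb libraries may share embryos.

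Iroquois proteins bind DNA through a homeodomain with an added loop of amino acids and work mainly as regulators of where structures form along an axis. In mammals they lie in a pair of clusters that arose by duplication, *Irx1*, *Irx2* and *Irx4* in one and *Irx3*, *Irx5* and *Irx6* in the other. In the limb, *Irx3* and *Irx5* are known for early patterning of the skeleton, and *Irx1* and *Irx2* for the digits and joints. *Irx4* is best known from the ventricle of the heart, and *Irx5* and *Irx6* from the retina.

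In the mouse build GRCm38 (mm10, GENCODE M21), *Irx1* lies at chr13:71957921-71963723 on the minus strand, *Irx2* at chr13:72628820-72634198 and *Irx4* at chr13:73260479-73269608 on the plus strand. The gaps between them are 665 and 626 kb. *Irx3* lies at chr8:91798525-91802067 on the minus strand, *Irx5* at chr8:92357625-92376286 and *Irx6* at chr8:92674288-92680956 on the plus strand, with gaps of 556 and 298 kb. The antisense gene *Irx3os* overlaps 1653 bases of *Irx3*, and how reads in the overlap were assigned by strand is not stated in the sources used here.

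The homeobox, the part of each gene that encodes the DNA-binding homeodomain, shows how alike the 6 genes are. From GENCODE M21 transcripts, the 48 coding bases around the codons for the tryptophan and asparagine of the recognition helix are shown for each gene, 5′ to 3′, with its place in GRCm38. Capitals mark the 8 positions at which the 6 genes are not all the same.
Irx1, exon 2, chr13:71959998-71960045, minus strand: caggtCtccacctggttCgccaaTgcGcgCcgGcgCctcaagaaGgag
Irx2, exon 2, chr13:72630799-72630846, plus strand: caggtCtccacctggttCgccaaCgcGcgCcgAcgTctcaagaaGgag
Irx4, exon 5, chr13:73267658-73267705, plus strand: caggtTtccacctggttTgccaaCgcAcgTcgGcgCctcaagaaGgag
Irx3, exon 2, chr8:91800502-91800549, minus strand: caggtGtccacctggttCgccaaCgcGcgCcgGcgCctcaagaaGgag
Irx5, exon 2, chr8:92359762-92359809, plus strand: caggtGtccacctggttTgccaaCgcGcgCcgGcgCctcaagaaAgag
Irx6, exon 4, chr8:92677371-92677418, plus strand: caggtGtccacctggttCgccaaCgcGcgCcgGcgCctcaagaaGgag
*Irx3* and *Irx6* are the same in this stretch. Over the whole homeobox of 189 bases, the identity between members ran from 83.1% (*Irx2* with *Irx4*, and *Irx2* with *Irx6*) to 91.0% (*Irx2* with *Irx5*). The most alike pair lies on different chromosomes. *Irx1* and *Irx2*, neighbours in one cluster, shared 87.8%, and so did *Irx3* and *Irx5* in the other.

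After filtering, 5708 to 7085 cells per penis library (of 8411 to 11397 barcodes), 22057 forelimb cells (of 28266) and 20514 hindlimb cells (of 25937) remained, with medians of 8792 to 9909 UMIs (penis), 5358 (forelimb) and 6057 (hindlimb). A cell took a name, ending in "-like", when it held enough markers of 1 type. Cells that passed gates of different lineages were left out when their shares of markers lay within 0.2 (3.33% to 4.15% per library). Another 8.11% to 13.5% passed none. Cells that passed a chondrocyte, osteoblast or tendon gate took that name even where a larger share of mesenchyme markers was found. *Tbx5* and *Pitx1*, the genes that set forelimb and hindlimb apart, followed the limb labels. Libraries shared at most 203 barcodes, between the forelimb and the hindlimb. Penis chondrocyte-like cells rested on a partial marker set, since the cartilage gene *Matn1* was found in 4.92% to 7.14% of them against 42.8% and 44.8% in the limbs. Penis tendon-like cells likewise had the tendon gene *Thbs4* in 23.5% to 32.0% of cells. Levels are given as counts per 1000000 UMIs of the summed cells (CPM), always in the order penis library 1, 2 and 3, then forelimb, then hindlimb. Intervals cover counting error only.

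Each member had its own pattern over cell types. White blood-like cells served as the background type. No member passed 2.70 CPM in any library there or was found in more than 2.03% of cells, at medians of 6649 to 7896 UMIs per cell, beside 5472 to 10414 in mesenchyme-like cells. The plot of levels by cell type gives all 6 genes on 1 scale. *Irx5* stood between 49.7 and 60.4 CPM in mesenchyme-like cells of all 5 libraries. *Irx4* stood above the white blood-like level in keratinocyte-like cells of every library and reached 1.15 CPM at most in the other types shown, from 1 UMI. *Irx1* and *Irx2* stood above the white blood-like level in mesenchyme-like and chondrocyte-like cells of the limbs alone, but in keratinocyte-like cells of both tissues.

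**Figure D1:**
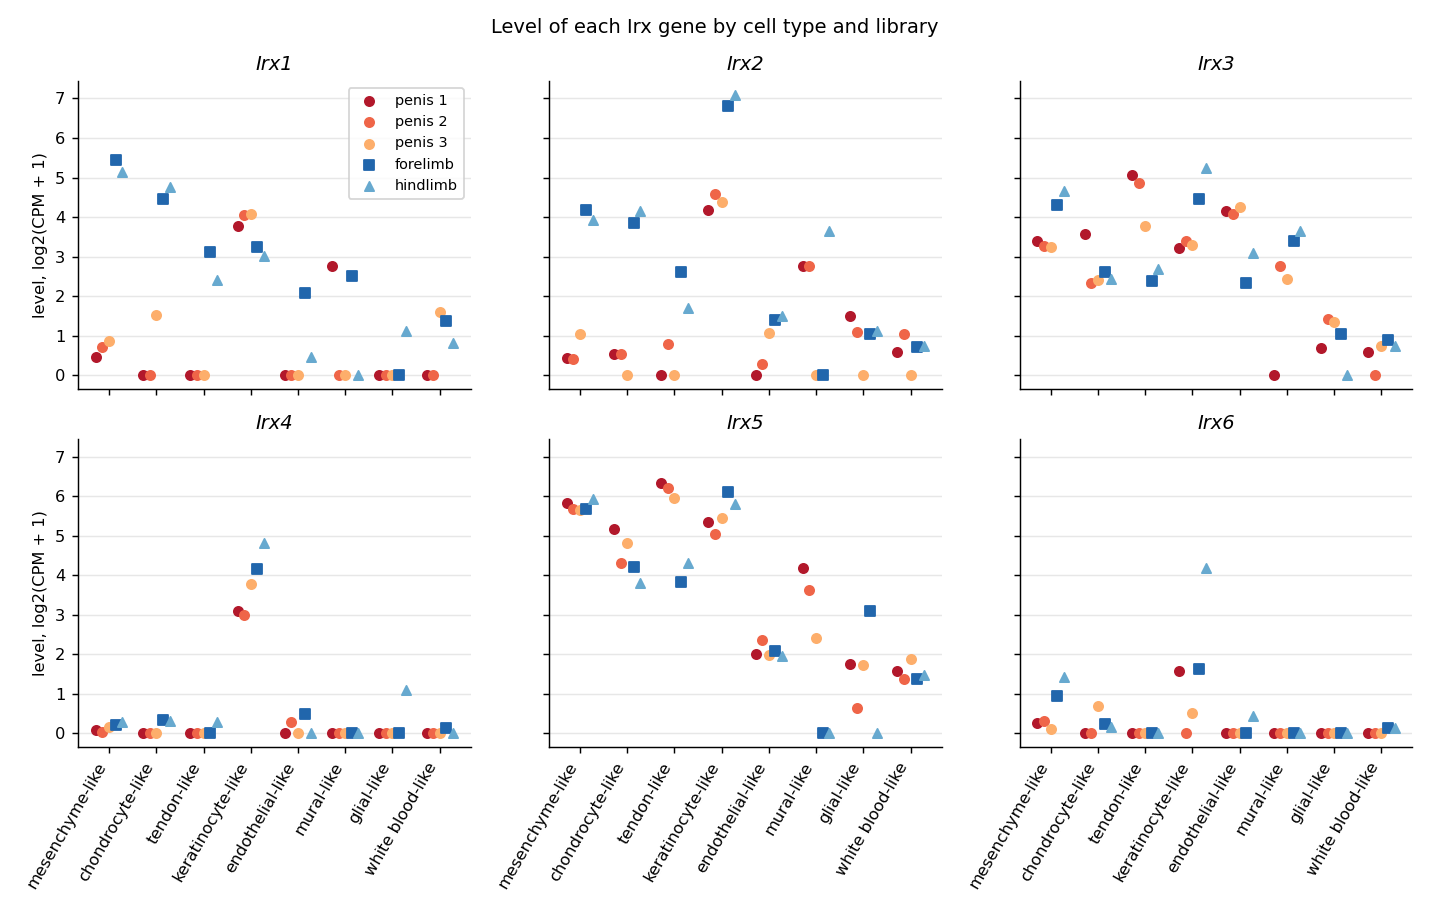
Level of each *Irx* gene, as log2(CPM + 1), in 8 marker-defined cell types (x axis), with 1 point per library (circles penis, square forelimb, triangle hindlimb). *Irx4* rises above 1 on this scale in keratinocyte-like cells and in 1 glial-like sum that holds 1 UMI, while *Irx5* in mesenchyme-like cells sits between 5 and 6 in all 5 libraries.

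Penis and limb were then compared within a cell type, on UMIs summed per library, 3 penis against 2 limb libraries. A gene was called at an adjusted p under 0.01 and an absolute log2 fold-change over 1 in edgeR's quasi-likelihood test. A fold-change below 0 is lower in penis. The filter on low counts keeps a gene that is high in 1 tissue alone, so counts of members called among those tested describe the members that passed and are no support for a direction. In sums of this kind, fewer expressing cells and less RNA per cell cannot be told apart. Where groups are said not to overlap, the share of all genes without overlap was not computed.

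In mesenchyme-like cells, 4 of the 5 members tested were lower in penis, and none was higher, where 25.2% of all genes tested were called and 12.7% were lower. *Irx1* stood at 0.369, 0.630 and 0.826 CPM in the penis libraries, 42.8 CPM in the forelimb and 34.4 CPM in the hindlimb. The groups lay far apart, with a log2 fold-change of −6.05 ± 0.19 (SE) and an adjusted p of 3.12e-08. *Irx2* stood at 0.348, 0.315 and 1.05 CPM against 17.3 and 14.1 CPM, again without overlap (−4.89 ± 0.29, adjusted p = 9.88e-07). Both penis levels lie within the range seen in white blood-like cells. *Irx1* was found in 14.8% and 13.1% of forelimb and hindlimb mesenchyme-like cells and in 0.375% to 0.653% of those of the penis. Thinned to 2000 UMIs per cell, the shares were 7.39% and 5.53% against 0.0913% to 0.159%.

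The members of the chromosome 8 cluster had smaller log2 fold-changes. *Irx3* stood at 9.59, 8.70 and 8.45 CPM in penis and 18.8 and 24.3 CPM in limb mesenchyme-like cells (−1.29 ± 0.11, adjusted p = 8.26e-06). *Irx6* gave 10, 12 and 3 UMIs in the penis libraries, 0.205, 0.252 and 0.0826 CPM, against 0.944 and 1.70 CPM in the limbs (−2.82 ± 0.39, adjusted p = 0.00019). All of these *Irx6* levels lie within 2.70 CPM, the ceiling over all members in white blood-like cells, although *Irx6* itself reached 0.105 CPM at most there. *Irx5* overlapped between the tissues, with 55.6, 50.7 and 49.7 CPM in penis and 49.98 and 60.4 CPM in limb, and its log2 fold-change of −0.10 ± 0.09 was not called (adjusted p = 0.298). Its share of cells after thinning ran from 8.96% to 9.97% in penis and was 9.15% and 9.78% in the limbs, although 28.7% to 33.9% of the deeper penis cells and 19.4% and 22.5% of limb cells held a UMI before thinning. *Irx4*, at no more than 0.224 CPM, did not pass the filter on low counts.

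**Figure D2:**
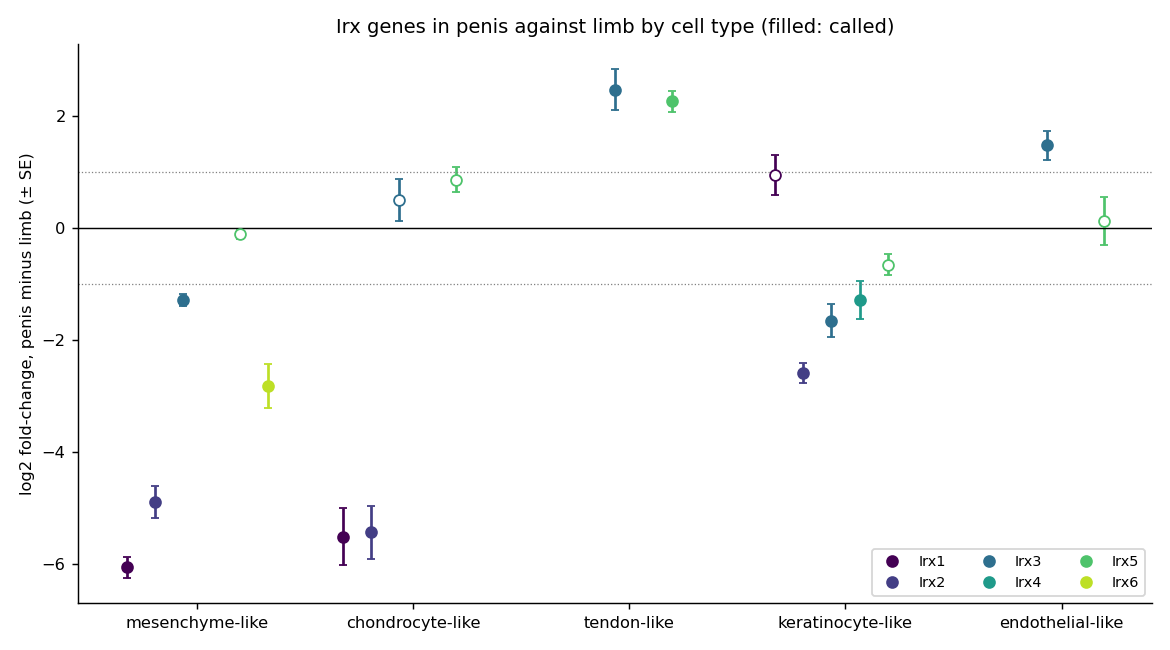
Log2 fold-change of penis minus limb (y axis, bars are SE) for each *Irx* gene that passed the low-count filter in 5 cell types (x axis). Filled points were called, open points were not, and dotted lines mark a log2 fold-change of 1 in either direction. *Irx1* and *Irx2* lie at −4.89 or below in mesenchyme-like and chondrocyte-like cells, while *Irx3* and *Irx5* lie above 2 in tendon-like cells.

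In chondrocyte-like cells *Irx1* and *Irx2* were lower in penis, and *Irx3* and *Irx5* were not called. Markers of other types also differed there. The median mesenchyme marker was found in 88.6% to 95.9% of penis and in 47.1% and 45.4% of limb chondrocyte-like cells, and the most frequent of the 5 tendon markers in 82.8% to 85.2% against 31.8% and 25.6%. Their part in the result was not tested. *Irx1* gave 0, 0 and 3 UMIs in the penis libraries, whereas the forelimb had 20.9 CPM and the hindlimb 26.3 CPM. Pooled over libraries, the penis level was 0.0206 times that of the limb (95% counting interval 0.00424 to 0.0605), and the gene was called (adjusted p = 3.37e-06). *Irx2* gave 1, 1 and 0 UMIs in penis and stood at 13.5 and 16.7 CPM in the limbs, a ratio of 0.0215 (0.00259 to 0.0781), also called (adjusted p = 2.04e-06). Both passed the filter through the limb libraries, where they are high, so nothing is read from the count of 2 of 4 members called, beside 17.4% of all genes called and 7.53% lower. *Irx5* ran the other way, at 35.3, 19.0 and 27.2 CPM in penis and 17.4 and 13.0 CPM in limb. Its groups did not overlap, but its log2 fold-change of 0.86 ± 0.22 (adjusted p = 0.00706) stayed under the limit of 1. In the chondrocyte-like cells without *Ihh* or *Col10a1*, genes of maturing cartilage, *Irx5* stood at 15.6, 9.33 and 10.6 CPM in penis and 10.4 and 10.6 CPM in limb, and the tissues overlapped. *Irx3* stood at 10.9, 4.07 and 4.33 CPM in penis and 5.11 and 4.39 CPM in limb and overlapped (0.50 ± 0.37, adjusted p = 0.286).

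In tendon-like cells *Irx3* and *Irx5* were higher in penis. *Irx5* stood at 79.9, 73.7 and 61.2 CPM in penis and 13.2 and 19.0 CPM in the limbs (2.26 ± 0.19, adjusted p = 1.55e-06). *Irx3* stood at 32.6, 28.0 and 12.6 CPM in penis and 4.18 and 5.43 CPM in the limbs (2.46 ± 0.36, adjusted p = 0.000161). Neither gene overlapped between the tissues, but the share of all genes without overlap was not computed. Penis library 3 was the lowest of the penis libraries for both. *Irx3* passed the filter through the penis libraries, where it is high, so nothing is read from the count of both members tested being called, beside 7.78% of all genes called higher. *Irx1* had no UMI in the 3 penis tendon-like sums and 35 and 19 UMIs in the limbs, too few to pass the filter. With 1 tendon marker fewer required per cell, the *Irx3* change fell to 0.90 and was no longer called, and with no filter on low counts it missed the limit at 2.42 (adjusted p = 0.0157). Markers of other types differed in both directions. The median chondrocyte marker was found in 21.1% to 26.8% of penis and in 10.0% and 14.2% of limb tendon-like cells, and the median mesenchyme marker in 92.1% to 95.1% against 72.9% and 76.3%. The most frequent of the 10 glial markers was in 75.4% to 78.4% of penis cells and in 24.0% and 27.9% of limb cells, while the glial medians were 0.877% to 3.91% and 1.56% and 1.77%. At most 3.92% of penis tendon-like cells held any one muscle marker, against up to 11.5% in the limbs. The part of these markers in the result was not tested.

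Endothelial-like cells carried *Irx3* in penis. It stood at 16.8, 15.9 and 18.2 CPM in the penis libraries and at 4.05 and 7.58 CPM in the forelimb and hindlimb, without overlap (1.47 ± 0.26, adjusted p = 0.000158). *Irx5* stood between 2.89 and 4.19 CPM in all 5 libraries, close to its white blood-like level of 1.58 to 2.70 CPM. So 1 of 2 members tested was called, where 13.4% of all genes were and 7.41% were higher. Penis *Irx3* was alike in endothelial-like cells with and without the lymphatic genes *Prox1*, *Lyve1*, *Flt4* and *Pdpn*, at 14.7 to 19.3 CPM and 16.4 to 17.5 CPM (0.06, adjusted p = 0.941). In that split 1.32% of all genes were called, and in the same split of limb cells, where no member passed the filter, 3.74% were.

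In keratinocyte-like cells 5 members were tested, 3 were lower in penis and none was called higher, where 11.8% of all genes were called and 6.01% were lower. *Irx2* stood at 17.2, 22.9 and 19.7 CPM in penis and 112 and 135 CPM in the limbs (−2.58 ± 0.18, adjusted p = 4.16e-09). *Irx3* stood at 8.29, 9.54 and 8.78 CPM in penis and 21.1 and 36.5 CPM in the limbs (−1.65 ± 0.30, adjusted p = 0.00037). *Irx4* stood at 7.63, 6.99 and 12.7 CPM in penis and 16.9 and 27.4 CPM in the limbs (−1.28 ± 0.34, adjusted p = 0.00854). None of these overlapped between tissues, but the share of all genes that do not overlap was not computed. In the cells without suprabasal keratins, set apart below, the *Irx4* levels of the tissues overlapped. The *Irx4* call was the least stable, since it was lost when any one of the penis libraries (−1.13 to −1.51) or the hindlimb (−0.88, adjusted p = 0.203) was left out, and by DESeq2 (adjusted p = 0.033). It was also lost with 1 marker more (adjusted p = 0.0108) or fewer (0.0193) required per cell. Keeping mixed cells (0.029) or all barcodes (−0.92, 0.0584) lost it too. With the study's cell limits read as UMIs the gene was not tested. *Irx3* lost its call without the hindlimb (−1.19, adjusted p = 0.0376). *Irx5* stood at 39.8, 31.8 and 42.6 CPM in penis and 67.6 and 54.8 CPM in the limbs (−0.65 ± 0.19, adjusted p = 0.0142), and *Irx1* at 12.6, 15.6 and 15.8 CPM against 8.45 and 7.11 CPM (0.95 ± 0.36, adjusted p = 0.0624). Neither gene was called, and *Irx1* in the cells without suprabasal keratins is given below.

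*Irx6* in keratinocyte-like cells rested on few UMIs. It gave 6, 0 and 1 UMIs in the penis libraries, 2 UMIs in the forelimb and 17 UMIs in the hindlimb. The hindlimb level was 17.3 CPM (95% counting interval 10.1 to 27.6), from 10 of 153 cells with up to 6 UMIs in a cell, and the forelimb level 2.11 CPM (0.256 to 7.63). With 1 library per limb these values describe the libraries and cannot be tested as a difference between limbs. Of the 17 hindlimb UMIs, 15 lay in cells without suprabasal keratins.

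Among mural-like, glial-like and white blood-like cells no member passed the filter on low counts in the comparison of penis with limb. For those types 11.5%, 16.0% and 22.8% of the genes tested were called.

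The next comparison asked in which cell types each member stood out, against mesenchyme-like cells of the same libraries and with the library as a block. In penis, *Irx1*, *Irx2* and *Irx4* were higher in keratinocyte-like cells, by 4.87 ± 0.36, 5.47 ± 0.35 and 7.09 ± 0.45 on the log2 scale. There 34.2% of genes were called. These members passed the filter on low counts through the keratinocyte-like cells, where they are high, so nothing is read from their number. The largest adjusted p among them was 1.33e-11, but the *Irx1* call was lost by DESeq2 (4.94, adjusted p = 0.0399). *Irx3* was higher in tendon-like cells (1.61 ± 0.21, adjusted p = 5.61e-07, with 8.93% of genes called) and in endothelial-like cells (1.00 ± 0.16, adjusted p = 1.96e-06, with 31.8% called). The tendon-like value fell to 0.90 with 1 marker fewer required per cell and was then not called. The endothelial-like value lay just past the limit of 1 and fell just under it in 6 of the other settings tried, leaving out penis library 3 among them (0.92). *Irx5* was lower than in mesenchyme-like cells in endothelial-like (−3.84 ± 0.17), mural-like (−2.39 ± 0.44) and glial-like cells (−4.86 ± 0.28), with 31.8%, 10.6% and 27.9% of genes called. *Irx3* was lower in glial-like cells too (−2.73 ± 0.49, adjusted p = 1.69e-05). The mural-like sums held 3, 2 and 1 UMIs of *Irx5*, and that call was lost without penis library 3 (adjusted p = 0.011). In penis chondrocyte-like cells none of 5 members tested was called by edgeR or DESeq2, where 12.8% of genes were by edgeR. At an unadjusted p under 0.05, 1 of them passed, and *Irx5* had the smallest adjusted p, 8.78e-07, at a log2 fold-change of −0.93.

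In the limbs, the keratinocyte-like cells were higher for *Irx2* (3.07 ± 0.18) and *Irx4* (6.86 ± 0.49) but lower for *Irx1* (−2.22 ± 0.39, adjusted p = 3.88e-05). There 24.9% of genes were called, and *Irx4* passed the filter on low counts through the keratinocyte-like cells alone. The chondrocyte-like cells were lower for *Irx3* (−2.29 ± 0.15) and *Irx5* (−1.96 ± 0.16), where 12.5% of genes were called, and *Irx2* held its mesenchyme-like level to within −0.11 (adjusted p = 0.586). In the limb tendon-like cells 4 of 5 members tested were lower, *Irx1* by −2.73 ± 0.23, *Irx2* by −2.14 ± 0.27, *Irx3* by −2.22 ± 0.20 and *Irx5* by −1.83 ± 0.19, where 3.03% of all genes were called and 1.73% were lower. The same 4 members were also lower in limb endothelial-like and muscle-like cells, with 25.2% and 34.9% of genes called. *Irx5* had no UMI in the limb mural-like sums, so it was at least 7.12-fold lower there than in mesenchyme-like cells, against a floor of 3 counts over both libraries. In the limb mural-like sums 5.18% of genes were called. Limb glial-like cells held 1 UMI of *Irx1*, 2 of *Irx2* and 1 of *Irx3* in all, and there and in white blood-like cells the same 4 members were lower (15.6% and 44.7% of genes called). In penis white blood-like cells *Irx3* and *Irx5* were lower (46.0% called). In limb red blood-like cells none of 5 members tested was called by edgeR or DESeq2, where 2.87% of genes were by edgeR, and 3 had an unadjusted p under 0.05.

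The difference between those contrasts was then tested as an interaction, at an adjusted p under 0.01. It was past that limit for *Irx3* and *Irx5* in tendon-like cells (3.69 ± 0.32 and 2.29 ± 0.23, adjusted p = 3.41e-11 and 1.11e-09, with 6.66% of all genes past it). It was also past it for *Irx3* in endothelial-like cells (2.77 ± 0.31, with 15.1% of genes past it) and for *Irx3* and *Irx5* in chondrocyte-like cells (1.76 ± 0.36 and 0.91 ± 0.22, with 16.1%), although both chondrocyte-like values missed the limit without penis library 1 or the hindlimb. In penis, 11, 13 and 7 chondrocyte-like cells with *Ihh* or *Col10a1* held 47, 24 and 29 UMIs of *Irx5*, against 31, 18 and 15 UMIs in the other 152, 141 and 115 cells, and the interaction was not tested without them. In keratinocyte-like cells it was past it for *Irx2* (2.33 ± 0.33) and for *Irx1*, at 7.02 ± 0.46 (adjusted p = 1.98e-13, with 13.6% of genes past it). With the study's cell limits read as UMIs the *Irx2* value was 1.48 and missed the limit (adjusted p = 0.0744). In keratinocyte-like cells *Irx1* thus sat above the mesenchyme-like level in penis and below it in limb. Its keratinocyte-like levels themselves were not called different. *Irx2* was lower in penis in both types, by −2.58 in keratinocyte-like and −4.89 in mesenchyme-like cells. In mural-like, glial-like and white blood-like cells no member of 5 was past the limit by edgeR, where 2.21%, 13.7% and 28.2% of genes were. An unadjusted p under 0.05 was found there for 1, 1 and 2 members, and DESeq2 called 0, 1 and 2.

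Within limb mesenchyme the Iroquois genes differed between subsets set by other genes. Each limb split, here and below, has 1 forelimb and 1 hindlimb library, with the library as a block. Its adjusted p leans on the spread shared over all genes and does not measure the spread between animals. Cells with at least 2 UMIs summed over *Twist2*, *Crabp1* and *Dpt*, which are genes expressed in dermal and other fibroblasts, numbered 7557 in the forelimb and 7280 in the hindlimb, more than all other mesenchyme-like cells. A rule on UMIs admits deeper cells more readily, and these cells had medians of 6111 and 6660 UMIs against 4534 and 5235 in the others. In those cells *Irx1* stood at 58.6 CPM in the forelimb and 46.0 CPM in the hindlimb, against 9.18 and 8.80 CPM in the other mesenchyme-like cells (2.56 ± 0.07, adjusted p = 3.68e-08). *Irx2* stood at 23.6 and 18.3 CPM against 3.71 and 4.63 CPM (2.35 ± 0.13). *Irx3* stood at 25.0 and 32.7 CPM against 5.81 and 5.73 CPM (2.34 ± 0.10). *Irx5* followed with a smaller difference, 60.6 and 76.4 CPM against 27.6 and 25.1 CPM (1.40 ± 0.09, adjusted p = 4.31e-06). These 4 members were called higher, where 2.20% of all genes were called and 1.41% were higher. *Irx4* was called lower on 5 and 2 UMIs against 8 and 17 (−2.86 ± 0.63, adjusted p = 0.0083), a call lost under another scaling, with 1 more marker required per cell and with mixed cells kept.

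An opposite picture was seen with *Nppc*, which encodes C-type natriuretic peptide, and *Tcf15*, a basic helix-loop-helix factor. In cells with at least 2 UMIs summed over both genes (680 forelimb and 688 hindlimb cells), *Irx1* stood at 10.3 and 10.7 CPM against 45.6 and 36.7 CPM in the others (−1.89 ± 0.11). *Irx2*, *Irx3* and *Irx5* were lower as well, by −1.72 ± 0.16, −1.59 ± 0.13 and −1.25 ± 0.09. So 4 of 5 members tested were lower, where 2.53% of all genes were called and 1.62% were lower. Mesenchyme-like cells with *Sox9*, the early regulator of cartilage, were also lower for *Irx1* (−1.34 ± 0.08), *Irx3* (−1.73 ± 0.11) and *Irx5* (−1.13 ± 0.07), where 0.899% of genes were called.

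In a further subset, *Irx3* and *Irx5* were called. In cells with *Gdf5*, a growth factor gene of the joint interzone, *Irx3* stood at 5.82 and 3.63 CPM against 18.9 and 24.6 CPM, and *Irx5* at 16.0 and 9.07 CPM against 50.3 and 61.1 CPM. Both were lower (−2.44 ± 0.42 and −2.37 ± 0.27, adjusted p = 2.44e-07 and 8.08e-16), where 3.95% of all genes were called and 2.02% were lower. *Irx1* in the same cells stood at 32.0 and 41.7 CPM against 42.9 and 34.3 CPM and overlapped, and *Irx2* stood at 24.7 and 20.9 CPM against 17.2 and 13.97 CPM. Neither was called (adjusted p = 0.805 and 0.475), nor was *Irx6* (−1.48, adjusted p = 0.737). *Irx4* did not pass the filter, and a difference between the clusters was not tested. These sums hold only 97 forelimb and 138 hindlimb cells.

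Cells with *Lhx2* or *Lhx9*, LIM homeobox genes of the distal limb mesenchyme, were higher for *Irx6*. It stood at 3.30 and 5.71 CPM there against 0.814 and 1.47 CPM in the other mesenchyme-like cells (1.91 ± 0.33, adjusted p = 0.000753), while *Irx1* stood at 16.0 and 21.5 CPM against 44.2 and 35.1 CPM (−1.13 ± 0.15, adjusted p = 6.09e-05). With these, 2 of 5 members tested were called, where 4.07% of all genes were. The *Irx1* value fell just under the fold limit with 1 more marker required per cell (−0.99) and with mixed cells kept (−0.97). *Irx5* stood at 85.8 and 104 CPM against 48.0 and 58.0 CPM, under the fold limit (0.77, adjusted p = 2.67e-06). Split instead by *Hoxa13*, a gene of the hand and foot plate, against *Hoxa11*, a gene of the forearm and shank, none of 5 members tested was called by edgeR or DESeq2, where 2.19% of all genes were called by edgeR. At an unadjusted p under 0.05, 4 of the 5 passed. *Irx1* stood at 19.4 and 19.3 CPM in *Hoxa13* cells and 38.2 and 36.5 CPM in *Hoxa11* cells, a log2 fold-change of −0.996 that lay just inside the limit (adjusted p = 0.000112). *Irx6* stood at 2.24 and 2.74 CPM against 0.345 and 1.18 CPM (1.56, adjusted p = 0.0283).

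**Figure D3:**
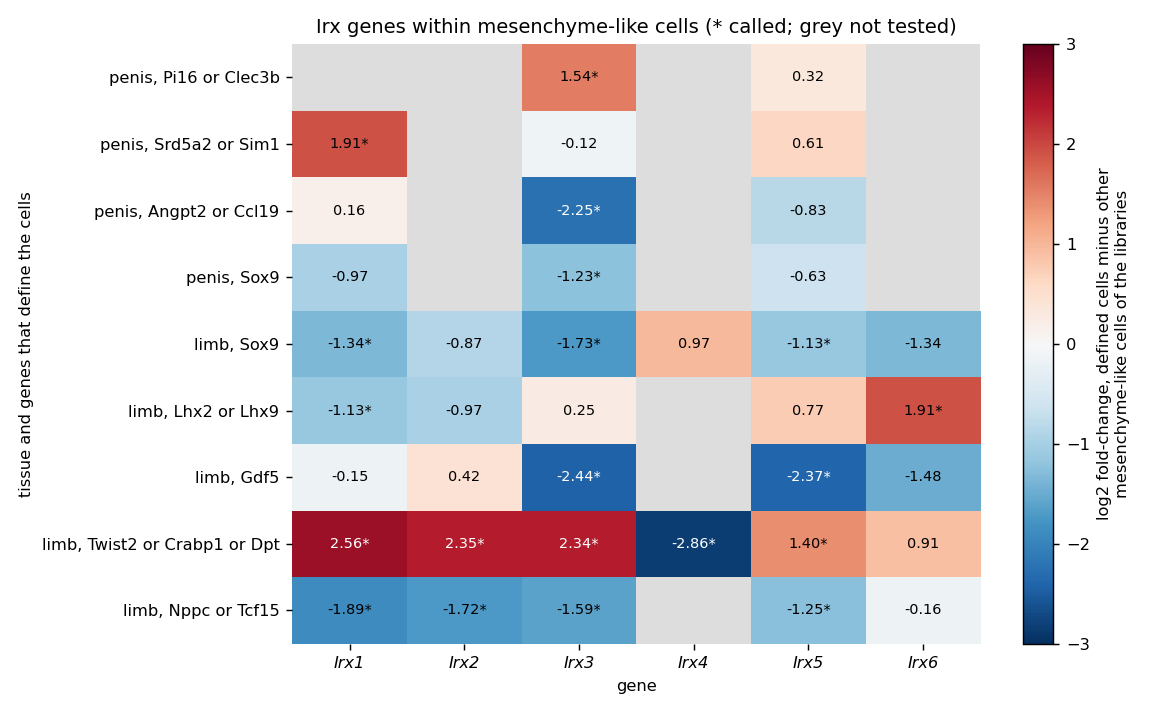
Log2 fold-change of each *Irx* gene (columns) in mesenchyme-like cells that hold at least 2 UMIs of the named genes, minus the other mesenchyme-like cells of the same libraries (rows, with the tissue). Asterisks mark called values and grey cells were not tested; *Irx1*, *Irx2* and *Irx3* lie above 2 in limb cells with *Twist2*, *Crabp1* or *Dpt* and below −1 in those with *Nppc* or *Tcf15*.

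Within penis mesenchyme, *Irx3* was called in 3 of 4 subsets set by marker genes. Cells with *Pi16* or *Clec3b*, genes of fibroblasts around vessels and in fascia, had *Irx3* at 18.9, 14.6 and 19.4 CPM against 7.02, 7.13 and 5.69 CPM in the others (1.54 ± 0.12, adjusted p = 4.24e-11, with 9.84% of genes called). With the cell limits read as UMIs it was not called (2.23, adjusted p = 0.0214). Cells with *Angpt2*, an angiopoietin, or *Ccl19*, a chemokine, had *Irx3* at 2.66, 2.74 and 2.67 CPM against 13.4, 11.6 and 11.3 CPM (−2.25 ± 0.12, adjusted p = 1.39e-13, with 12.4% called). The *Irx3* level with *Angpt2* or *Ccl19* was thus alike in the 3 libraries. *Irx3* was also lower in penis cells with *Sox9* (−1.23 ± 0.13, with 5.11% of genes called). The same 3 splits moved *Irx5* by 0.32, −0.83 and −0.63, all under the fold limit.

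*Srd5a2* encodes the enzyme that turns testosterone into dihydrotestosterone, and *Sim1* a basic helix-loop-helix factor. Penis cells with either had *Irx1* at 0.559, 1.33 and 1.45 CPM against 0.240, 0.174 and 0.474 CPM in the others (1.91 ± 0.38, adjusted p = 0.000899, with 2.39% of genes called). These levels rest on 11, 25 and 19 UMIs against 7, 5 and 11, lie within the white blood-like range, and the call was lost without penis library 2 (1.44, adjusted p = 0.0162) and by DESeq2 (adjusted p = 0.0478). In the same cells *Irx5* stood at 70.4, 62.96 and 65.1 CPM against 45.7, 42.6 and 40.9 CPM, without overlap and under the fold limit (0.61, adjusted p = 7.61e-10). In dividing mesenchyme-like cells no member was called in either tissue by edgeR or DESeq2, where 5.07% of penis and 3.63% of limb genes were by edgeR. At an unadjusted p under 0.05, 0 of 3 members tested passed in penis and 4 of 5 in limb. The largest log2 fold-change among them was that of limb *Irx1*, 0.84 (adjusted p = 2.86e-35), with 59.2 and 51.0 CPM in dividing cells and 35.5 and 27.2 CPM in the others. As in the other limb splits, that adjusted p does not measure the spread between animals.

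In limb cartilage, *Irx5* was higher in one subset. *Ihh* encodes Indian hedgehog and *Col10a1* the collagen of hypertrophic cartilage, and together they mark chondrocytes that are about to enlarge or have done so. Limb chondrocyte-like cells with at least 2 UMIs of them (66 forelimb and 63 hindlimb cells) had *Irx5* at 125 and 67.7 CPM, against 10.4 and 10.6 CPM in the other chondrocyte-like cells. The log2 fold-change was 3.30 ± 0.27 (adjusted p = 6.28e-07), and *Irx5* was the only one of 4 members tested that was called, where 4.56% of all genes were. *Irx3* stood at 10.4 and 15.5 CPM against 4.76 and 3.89 CPM (1.75, adjusted p = 0.0346), and *Irx1* at 20.9 and 31.0 CPM against 20.9 and 26.1 CPM (0.29, adjusted p = 0.599). Penis libraries held 11, 13 and 7 such cells, too few to be tested under the rule of 20 cells. There *Irx5* stood at 207, 85.2 and 147 CPM against 15.6, 9.33 and 10.6 CPM, and *Irx3* at 70.6, 24.8 and 25.3 CPM against 4.03, 1.04 and 1.41 CPM. In all 5 libraries the *Irx5* counting intervals of the 2 sets of cells lay apart. Cells with *Ihh* or *Col10a1* held more UMIs, with medians of 8132 and 8624 in the limbs and 25600 to 27899 in penis, against 4656 to 13677 in the others, and the part of depth was not tested.

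**Figure D4:**
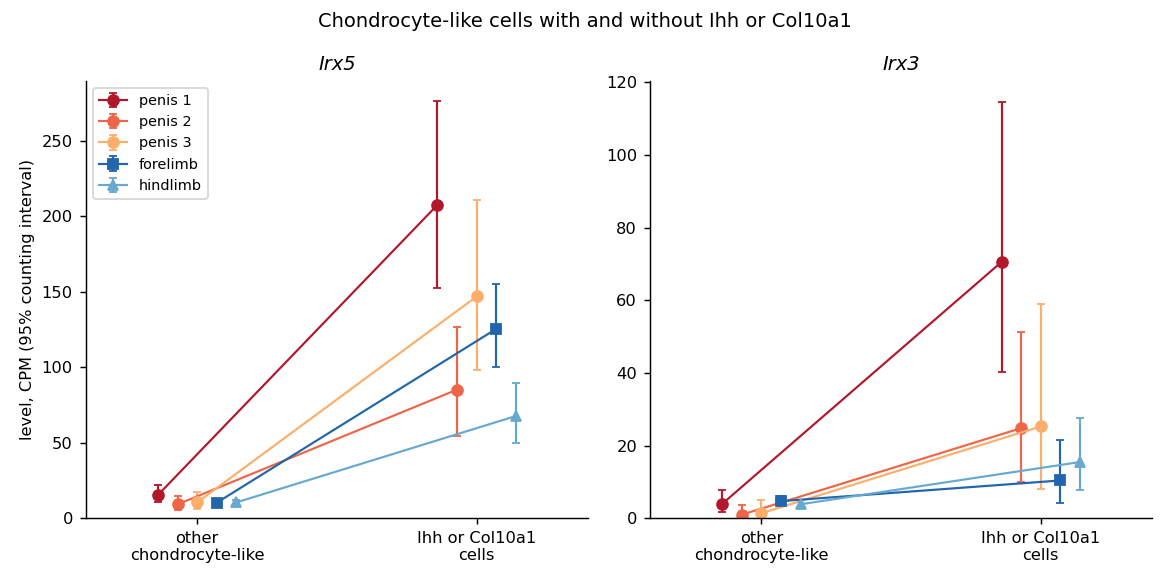
*Irx5* (left) and *Irx3* (right) in chondrocyte-like cells with at least 2 UMIs of *Ihh* and *Col10a1* and in the other chondrocyte-like cells of the same library, in CPM with 95% counting intervals. Lines join the sums of 1 library; the *Irx5* level with *Ihh* or *Col10a1* runs from 67.7 to 207 CPM and without them from 9.33 to 15.6 CPM.

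In penis epithelium the chromosome 13 genes were lower in the cells with suprabasal keratins than in the others. Keratinocyte-like cells with at least 3 UMIs of *Krt1*, *Krt10*, *Krt13*, *Krt4* and *Krtdap*, genes of the upper layers, had *Irx1* at 2.57, 3.26 and 2.70 CPM, against 47.2, 59.1 and 72.3 CPM in the others. *Irx1* was lower by −4.43 ± 0.30 (adjusted p = 4.56e-06). *Irx2* stood at 12.8, 10.6 and 11.4 CPM against 32.4, 66.3 and 56.0 CPM (−2.23 ± 0.28, adjusted p = 0.000811). *Irx4* stood at 4.70, 4.08 and 5.95 CPM against 17.7, 17.3 and 42.0 CPM (−2.40 ± 0.38, adjusted p = 0.00355). *Irx2* and *Irx4* stayed above the white blood-like ceiling of 2.70 CPM in the cells with these keratins. *Irx1* and *Irx4* passed the filter on low counts through the cells without these keratins, where they are high. So nothing is read from the count of 3 of 5 members tested being lower, beside 1.88% of all genes called. *Irx3* and *Irx5* were not called (−0.50 and −0.70, adjusted p = 0.624 and 0.073). The *Irx4* call was lost without penis library 3 (−2.06, adjusted p = 0.023). The cells without these keratins were the shallower ones in penis, with medians of 3082 to 3592 UMIs against 12205 to 14131, and the part of depth in these results was not tested.

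In limb epithelium the same split called no member by edgeR or DESeq2, where 8.35% of all genes were called. *Irx2* stood at 103 and 143 CPM with suprabasal keratins and 131 and 122 CPM without (0.06, adjusted p = 0.936), and *Irx4* at 13.9 and 13.1 CPM against 23.6 and 50.5 CPM (−1.31, adjusted p = 0.111). At an unadjusted p under 0.05, *Irx4* alone of the 4 members tested passed. *Irx1* gave 3 or 4 UMIs in each of these limb sums and was not tested. Whether the split differs between penis and limb was not tested.

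**Figure D5:**
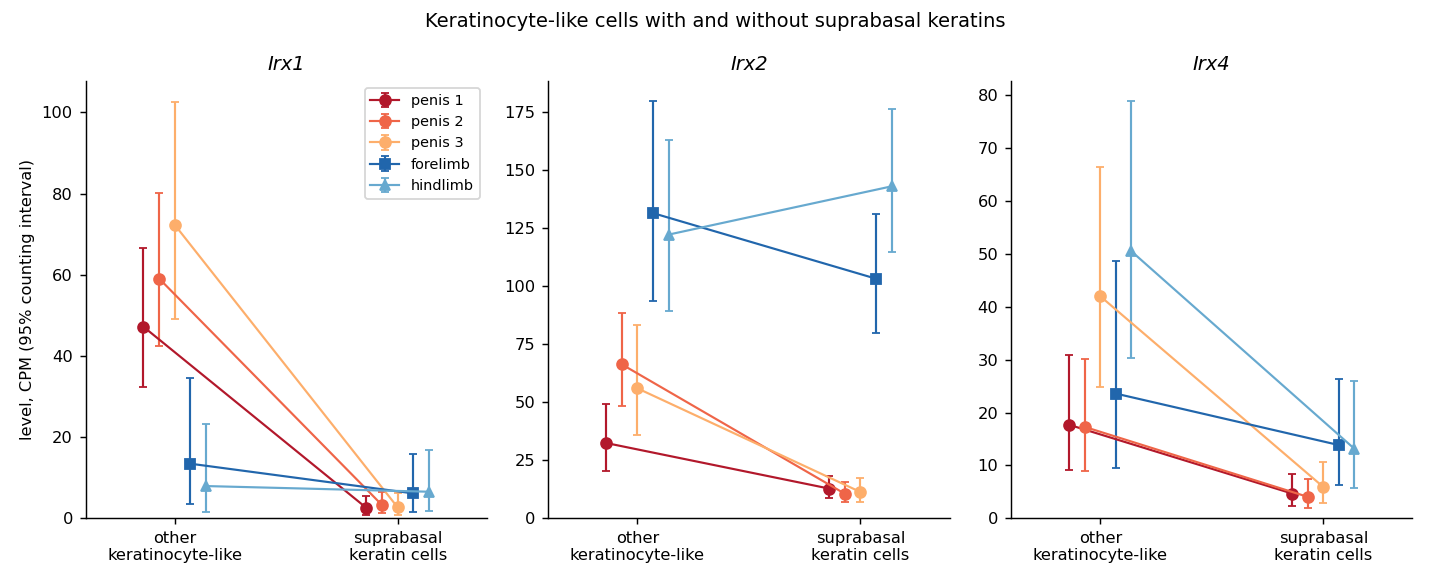
*Irx1*, *Irx2* and *Irx4* in keratinocyte-like cells with at least 3 UMIs of suprabasal keratin genes and in the other keratinocyte-like cells of the same library, in CPM with 95% counting intervals. Lines join the sums of 1 library; *Irx1* in penis falls from 47.2 to 72.3 CPM in the other cells to 2.57 to 3.26 CPM with suprabasal keratins.

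Penis keratinocyte-like cells with an *Irx1* UMI numbered 18, 23 and 13 per library. They were picked by *Irx1* itself after its values were seen, so what follows is a description with no test. Ranked by the lowest of the 3 library ratios, with 5 CPM added, the genes most raised beside the other 244, 282 and 205 keratinocyte-like cells began with *Cck*, *Psph*, *Krt79*, *Apoc1*, *Plin2*, *Pparg* and *Cebpb*. *Plin2* coats lipid droplets, and *Pparg* and *Cebpb* encode regulators of fat storage. *Pparg* stood at 48.3, 84.4 and 126 CPM in cells with *Irx1* and 5.06, 2.81 and 6.63 CPM in the others. *Plin2* stood at 326, 155 and 126 CPM against 23.5, 18.6 and 19.4 CPM. *Krt79*, a keratin known from hair follicle canal and sebaceous gland, stood at 326, 297 and 132 CPM against 13.0, 34.4 and 10.9 CPM. *Krt13*, a keratin of the upper layers of moist epithelium, had no UMI in them against 112 to 130 CPM in the others. *Krt4*, another such keratin, did not follow in every library, at 0, 3.38 and 413 CPM against 217, 237 and 326 CPM. *Upk1b*, which encodes a uroplakin, stood at 0, 3.38 and 53.9 CPM against 102, 88.5 and 96.1 CPM. *Irx2* stood at 44.3, 142 and 95.8 CPM against 14.8, 10.5 and 13.7 CPM. The cells with *Irx1* had medians of 11771 to 12593 UMIs, against 8945 to 11372 in the others.

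Members of a cluster were also found in the same cells. In forelimb mesenchyme-like cells, 625 cells held both *Irx1* and *Irx2*, where 162 would be expected from their separate shares within 10 bins of cells of like depth. The hindlimb had 512 such cells against 127 expected. *Irx3* and *Irx5* shared 638 forelimb and 854 hindlimb cells, 2.74 and 2.64 times the expected number, and 220, 192 and 140 cells in the penis libraries, 1.81, 1.79 and 1.88 times it. Pairs across the clusters were shared as well, since *Irx1* and *Irx3* met in 538 forelimb cells, 3.02 times the expected number, and in 600 hindlimb cells, 3.11 times. In limb chondrocyte-like cells *Irx3* and *Irx5* met in 19 cells of each library, 4.13 and 5.14 times the expected number. These ratios describe cells that share a library, and the subsets above enter them.

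Across the 44 sums of library and cell type with at least 20 cells, the pattern of *Irx2* on the log2(CPM + 1) scale correlated most with that of *Irx4* among the members (Pearson r = 0.76), that of *Irx3* with that of *Irx5* (0.58), and that of *Irx1* with that of *Irx2* (0.65). *Irx6* correlated most with *Irx4* (0.68) and *Irx2* (0.66) of the other cluster, and less with *Irx3* (0.41) and *Irx5* (0.39) of its own. The lowest of the 15 pairs was *Irx1* with *Irx3* (0.18), a pair with 89.4% identity in the homeobox. *Irx2* and *Irx5*, with the most alike homeoboxes, had r = 0.35. Among all 15200 genes with at least 10 CPM in a sum, the 5 patterns most like that of *Irx5* were those of *Slc1a3* (0.89), *Cxcl14* (0.89), *Dcn* (0.87), *Sema3a* (0.84) and *Bnc2* (0.83). For *Irx1* they were *Emx2os* (0.78), *Ube2ql1* (0.74), *Cdh12* (0.74), *Bcl11a* (0.71) and *Gm40999* (0.71). For *Irx2* they were *Edn2* (0.84), *Krt18* (0.84), *Edar* (0.80), *Ppp1r13l* (0.80) and *Tspear* (0.79). For *Irx3* they were *Hspb8* (0.74), *Ak4* (0.74), *Afdn* (0.74), *Tspan9* (0.73) and *Mtx3* (0.72). For *Irx4* they were *Wnt7a* (0.99), *2610528J11Rik* (0.98), *H60c* (0.98), *Grhl3* (0.98) and *Rhbg* (0.98), and for *Irx6* *Gm20554* (0.87), *Aadac* (0.87), *Krt35* (0.82), *Serpinb12* (0.82) and *Capns2* (0.81). The sums share libraries and depth, and the *Irx4* values turn on the 5 keratinocyte-like sums. The *Irx6* level was far higher in the hindlimb keratinocyte-like sum, at 17.3 CPM from 17 UMIs, than in any other sum (2.30 CPM at most), and its correlations without that sum were not computed.

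The other TALE homeobox genes, 12 of the *Meis*, *Pbx*, *Pknox*, *Tgif* and *Mkx* families, did not share one direction. In mesenchyme-like cells *Meis1* (1.05), a cofactor of other homeodomain proteins, was higher in penis and *Tgif1* (−1.15), a repressor, was lower. The median log2 fold-change of the list there was 0.13, beside 0.0043 over all genes tested. In keratinocyte-like cells *Meis1* (2.67) and *Meis2* (1.74) were higher and none of the list was lower. In chondrocyte-like cells *Mkx* (2.72) and *Meis3* (2.36) were higher and *Tgif1* (−1.46) and *Tgif2* (−1.34) lower. Tendon-like cells had *Meis1* higher (1.36) and *Tgif1* and *Tgif2* lower. In endothelial-like cells *Pknox2* was higher (5.02). Mural-like cells had none of 4 tested called, and glial-like cells had 1 of 11 lower (*Pbx3*, −1.12). White blood-like cells had 3 of 9 lower (*Meis2*, −2.61, *Pbx4*, −2.46, and *Meis1*, −1.06). Of all genes tested, 11.5%, 16.0% and 22.8% were called in these types.

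Genes that neighbour the clusters were called in both directions. In mesenchyme-like cells 25.2% of all genes tested were called and 12.7% were lower in penis. Around *Irx1*, *Irx2* and *Irx4*, 1 of 10 genes was higher there (*Nkd2*, 1.05) and 2 were lower (*Trip13*, −1.13, and *Tppp*, −1.24). The median of these 10 was 0.05. *Irx1* and *Irx2* themselves had log2 fold-changes of −6.05 and −4.89, and *Irx4* was not tested. Around *Irx3*, *Irx5* and *Irx6*, 3 of 10 were higher (*Slc6a2*, 5.63, *Mmp2*, 2.08, and *Lpcat2*, 1.21) and 2 were lower (*Irx3os*, −1.32, and *Capns2*, −1.29). *Irx3os* thus had a log2 fold-change close to that of *Irx3*, which it overlaps. In tendon-like cells *Crnde*, which starts 1505 bases from *Irx5* on the opposite strand, was higher in penis (2.14 ± 0.44, adjusted p = 0.00187), beside *Irx5* at 2.26, and *Mmp2* was higher too (1.88). In keratinocyte-like cells *Capns2* was lower (−3.39), *Mmp2* (−0.56) and *Lpcat2* (−0.22) were not called, and no neighbour of *Irx1*, *Irx2* and *Irx4* was called. In chondrocyte-like and endothelial-like cells *Mmp2* (1.73 and 1.63) and *Lpcat2* (1.14 and 1.68) were higher, and around the other cluster *Tppp* (1.90) and *Slc12a7* (1.23) were higher in endothelial-like cells and none was called in chondrocyte-like or tendon-like cells. Mural-like cells had none called, glial-like cells had *Trip13* lower (−1.32), and white blood-like cells had *Mmp2* higher (1.18) and *Rpgrip1l* (−2.85), *Fto* (−1.03) and *Trip13* (−1.58) lower.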

How the data were processed

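The deposited files hold counts of UMIs per gene and barcode, which the authors made with the 10X Genomics 3′ v3.1 kit. The submitters' processing notes name Cell Ranger 7.0.0 and mm10. Cells were kept between 500 and 6000 genes and up to 5% mitochondrial UMIs in penis, and between 100 and 9000 (forelimb) or 9500 (hindlimb) genes and up to 10% in limbs, with at least 0.8 log10 genes per log10 UMI, the study's limits being read as genes. A cell was named when it held the minimum number of a type's markers (5 of 10 for most types, 3 of 5 for tendon). The type with the highest share of its markers gave the name, but chondrocyte, osteoblast and tendon went before mesenchyme whatever its share. No doublet caller was run. Cells that also passed a gate of another lineage within 0.2 of that share were left out. UMIs were summed per library and type over at least 20 cells and tested with edgeR 4.0.16 (TMM scaling, quasi-likelihood, Benjamini-Hochberg over all genes, R 4.3.3, limma 3.58.1), with DESeq2 1.42.0 as an alternative. SEs were taken as |log2 fold-change| divided by the square root of F. Sums, intervals and plots were made with scipy 1.17.1, numpy 2.4.6, matplotlib 3.10.9 and pandas 2.3.3 in Python 3.11.15. Tests were checked on simulated counts. Replicates are libraries, and whether they came from separate animals is not in the labels. All members are named, likewise list genes past both limits and the 5 patterns most like each member. The values of 1 list gene are not reported here. The members were set by gene symbol, and members and lists were chosen with earlier results of these data known. Intervals are exact Poisson at 95%.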

Additional observations from a re-analysis of the deposited data

Results flagged for a closer look

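Penis and limb differed in how far a cell type stood from mesenchyme for 7 pairs of *Irx* gene and cell type, at an adjusted p under 0.01 of edgeR's interaction term. They are differences of log2 fold-changes, penis minus limb. In tendon-like cells they were 3.69 ± 0.32 (SE) for *Irx3* and 2.29 ± 0.23 for *Irx5*, with 6.66% of all genes past the limit. In keratinocyte-like cells they were 7.02 ± 0.46 for *Irx1* and 2.33 ± 0.33 for *Irx2* (adjusted p = 6.89e-07), with 13.6% of all genes past it. The *Irx2* difference was lost with the study's cell limits read as UMIs (1.48, adjusted p = 0.0744). *Irx2* itself was lower in penis keratinocyte-like cells (−2.58), and by more in penis mesenchyme-like cells (−4.89). In endothelial-like cells *Irx3* differed by 2.77 ± 0.31 (adjusted p = 3.07e-09, with 15.1% of all genes past the limit). In chondrocyte-like cells *Irx3* differed by 1.76 ± 0.36 (adjusted p = 0.000264) and *Irx5* by 0.91 ± 0.22 (adjusted p = 0.00192), where 16.1% of all genes were past the limit. A few penis cells held much of these levels. The 11, 13 and 7 penis chondrocyte-like cells with *Ihh* or *Col10a1* had *Irx3* at 70.6, 24.8 and 25.3 CPM, against 4.03, 1.04 and 1.41 CPM in the other penis and 4.76 and 3.89 CPM in the other limb chondrocyte-like cells. *Irx5* in those others stood at 15.6, 9.33 and 10.6 CPM in penis and 10.4 and 10.6 CPM in limb, and the interaction was not tested in them. Both chondrocyte-like differences were lost without penis library 1 (adjusted p = 0.0889 for *Irx3* and 0.0802 for *Irx5*) or the hindlimb (0.0108 and 0.0822), and that of *Irx5* also without penis library 3 (0.0128) and by DESeq2 (0.0355).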

How the results depend on the processing

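Of the values of the 80 called gene and comparison pairs under other settings, 165 come from comparisons that do not use the library left out and could not move. Of the other 797, 760 kept direction and call, 37 kept direction and lost the call, and none reversed. A pair whose gene failed the filter or whose comparison was not run under a setting has no value there and is not counted as lost. With the study's cell limits read as UMIs, 51 pairs kept the call, 2 lost it and the rest had no value. Among the last were *Irx1*, *Irx2* and *Irx4* in penis keratinocyte-like against mesenchyme-like cells. The main counts of called members were 12 for penis against limb, 11 within penis, 26 within limb, 7 interactions, 24 in subsets and 0 for *Hoxa13* against *Hoxa11*. Leaving out each library in turn gave 11 to 14 for penis against limb, 9 to 12 within penis, 5 to 8 interactions and 7 to 24 in subsets. The 7 subset calls arose without the forelimb or the hindlimb, when only the 7 penis comparisons could be run. Within-limb fits and that of *Hoxa13* against *Hoxa11* were not run without a limb library, since no residual degrees of freedom remained. With the study's cell limits read as UMIs, fewer comparisons had enough cells, and the counts were 5, 2 and 3 for penis against limb, within penis and interactions. For *Hoxa13* against *Hoxa11*, 1 member, *Irx1*, was called with no filter on low counts, with all barcodes or with limits read as UMIs, and 2, *Irx1* and *Irx2*, with 1 marker fewer per type. The cause was not tested. By DESeq2 the counts were 11, 9, 26, 9, 22 and 0. Penis and limb libraries came from animals of different ages, so no paired analysis of the tissues was possible. Fits within a tissue without the library block gave 11 and 26 calls and lost none. RLE scaling moved the median of all genes by over 0.1 in 5 of 48 comparisons, 4 within limb and 1 interaction, by at most 0.20. Few UMIs underlie *Irx4* outside keratinocyte-like cells, and *Irx6* in keratinocyte-like cells, where the 5 sums hold 0 to 17 UMIs of it.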

Other observations

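In the limbs, red blood-like cells held 7 and 3 UMIs of *Irx1*, 20.9 CPM in the forelimb and 6.90 CPM in the hindlimb. The median mesenchyme marker was found in 27.0% and 31.1% of these cells, against 9.01% and 9.38% of limb white blood-like cells, and its part in the *Irx1* level was not tested. Muscle-like cells of the forelimb and hindlimb held *Irx3* at 2.45 and 3.12 CPM, beside a mean of 0.752 CPM in limb white blood-like cells. They held *Irx5* at 3.41 and 2.20 CPM, close to its own white blood-like level. One hindlimb mesenchyme-like cell held 61 UMIs of *Irx5*, and one held 34 UMIs of *Irx3*.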
